A study of Mus musculus with 8 samples.

Results

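The genes described here are 10 components of the Wnt and R-spondin signal that patterns the liver lobule. They are the ligands Wnt2, Wnt9b and Rspo3, the receptors Lgr4 and Lgr5, the ubiquitin ligases Rnf43 and Znrf3, the target genes Axin2 and Tbx3, and Ctnnb1, which encodes beta-catenin. They were taken from a list of symbols, drawn up with earlier results of these data known, and all 10 were found among the 56953 gene identifiers of the count files. All 10 also passed the filter on low counts, which kept 15669 genes for testing. Whole liver RNA was sequenced from 4 HSC-PCK1-KO mice, which lack PCK1 in hepatic stellate cells (HSC), and from 4 control mice of wild-type genotype. HSC are the vitamin A storing cells that become myofibroblasts in injured liver, and PCK1 is the cytosolic enzyme that makes phosphoenolpyruvate from oxaloacetate. All mice, controls included, were adult males that had eaten CDHFD, a high-fat diet without choline, for 8 weeks. That diet produces fatty liver with inflammation and fibrosis. All libraries carry the same batch label. The labels used here name no Cre driver, Pck1 allele, strain or exact age.

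Hepatocytes near the central vein and near the portal vein express different enzymes, and Wnt signalling from the central vein sets the pericentral program. Endothelial cells of the central vein and the sinusoids secrete Wnt2 and Wnt9b, and R-spondin 3 comes from central vein endothelium and stellate cells. Wnt ligands bind Frizzled receptors with LRP co-receptors, which stops the destruction complex from degrading beta-catenin, and beta-catenin then acts with TCF/LEF factors on target genes. RNF43 and ZNRF3 remove Frizzled receptors from the cell surface, and R-spondins bound to LGR4 or LGR5 take these ligases away. Axin2, Lgr5, Tbx3, Rnf43 and Znrf3 are themselves targets of the pathway, so several members are both parts and readouts of the signal.

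Promoter sequences are shown for the 2 Wnt ligands whose fold changes were the largest among the members, for Axin2, the usual target readout of the pathway, and for Lect2, a pericentral target gene described with the results. Each is the window from 250 bases before to 50 bases after the gene start in RefSeq on build GRCm38.p6, 5′ to 3′ on the strand of the gene. Capitals mark a match to CTTTGNT, a loose form of the TCF/LEF motif in which N is any base, searched on both strands. The Wnt2 window is chr6:18030396-18030695 on the minus strand, the Wnt9b window chr11:103749772-103750071 on the minus strand, the Axin2 window chr11:108920099-108920398 on the plus strand and the Lect2 window chr13:56548489-56548788 on the minus strand.
Wnt2: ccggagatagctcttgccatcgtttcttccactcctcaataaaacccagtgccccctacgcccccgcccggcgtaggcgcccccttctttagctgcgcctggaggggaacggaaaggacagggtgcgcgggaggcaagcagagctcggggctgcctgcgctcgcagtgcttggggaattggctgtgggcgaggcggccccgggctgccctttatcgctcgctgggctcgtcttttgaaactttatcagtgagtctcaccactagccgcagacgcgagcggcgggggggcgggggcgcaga
Wnt9b: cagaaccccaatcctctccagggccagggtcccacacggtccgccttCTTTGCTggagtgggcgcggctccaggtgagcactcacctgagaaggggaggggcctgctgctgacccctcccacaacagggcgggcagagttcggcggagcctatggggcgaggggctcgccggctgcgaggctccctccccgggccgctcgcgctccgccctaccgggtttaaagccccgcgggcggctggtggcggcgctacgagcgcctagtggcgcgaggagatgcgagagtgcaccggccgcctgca
Axin2: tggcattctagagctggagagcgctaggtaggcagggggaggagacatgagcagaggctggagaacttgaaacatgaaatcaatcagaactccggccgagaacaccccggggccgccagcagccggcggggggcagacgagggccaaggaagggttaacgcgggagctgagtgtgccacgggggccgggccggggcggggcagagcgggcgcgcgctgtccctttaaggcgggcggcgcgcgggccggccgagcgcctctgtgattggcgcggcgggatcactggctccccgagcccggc
Lect2: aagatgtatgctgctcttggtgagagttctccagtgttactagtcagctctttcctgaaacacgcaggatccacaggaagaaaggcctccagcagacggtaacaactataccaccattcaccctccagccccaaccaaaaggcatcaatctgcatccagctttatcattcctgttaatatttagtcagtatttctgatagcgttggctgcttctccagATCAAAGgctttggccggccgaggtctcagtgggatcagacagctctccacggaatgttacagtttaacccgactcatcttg
The Wnt9b window held 1 match, with C at N, on the strand of the gene with its first base at position -203 from the start. The Lect2 window held 1 match, with A at N, on the opposite strand with its first base at position -32. The windows of Wnt2 and Axin2 held none. Other pathway genes named with the results were searched too and are not printed. The windows of Glul, Oat, Cyp2e1 and Nkd1 held no match, that of Sp5 held 2, and those of Tcf7l2 held 0 and 1. The set of RefSeq windows used here held 8 windows for 6 of the members, and none for Rspo3, Lgr5, Znrf3 or Tbx3. Of these 8 windows 1 held a match, and over all 32851 windows of 300 bases in the set the share was 18.6%. A match describes letters in a window, and the windows without one say nothing about a factor.

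Library totals ranged from 47405693 to 49342122 counts in HSC-PCK1-KO livers and from 44695439 to 49477255 counts in control livers. Pck1, the targeted gene, had 339, 795, 593 and 948 CPM (counts scaled to a common library total) in HSC-PCK1-KO livers, against 1002, 2012, 551 and 1028 CPM in control livers. The log2 fold change was -0.78 (SE 0.44), or -0.36 when control replicate 2 was left out, and the ranges overlapped. Since hepatocytes are a strong source of Pck1, whole liver tissue cannot show whether stellate cells lost it. Markers of hepatocytes (4 of the 5 listed, as Tf matched no symbol), endothelial cells and stellate cells were all detected, and none of the matched markers was at 0.

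No member passed the test between HSC-PCK1-KO and control livers, where the quasi-likelihood test of edgeR, adjusted by Benjamini-Hochberg over all 15669 genes, gave every one an adjusted p of 0.9998. No other gene passed either, so the background share of genes called was 0%, and 370 genes had an unadjusted p under 0.05. DESeq2 called 6 genes and limma-voom 0, with no member among them. The 3 ligands had positive log2 fold changes, up to 0.60 for Wnt9b, and Lgr5 had 0.22. The other receptor, both ligases, both remaining targets and Ctnnb1 lay between -0.039 and 0.031. The ranges of the 2 groups overlapped for all 10 members.

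Wnt2 (ENSMUSG00000010797.7), an endothelial Wnt ligand, had 5.61, 2.94, 3.76 and 4.21 CPM in HSC-PCK1-KO livers, against 3.57, 4.10, 2.62 and 2.74 CPM in control livers. HSC-PCK1-KO replicate 1 was the highest library and control replicate 3 the lowest, and the groups overlapped. The mean was 4.13 ± 1.12 CPM in HSC-PCK1-KO livers and 3.26 ± 0.705 CPM in controls (SD, n = 4 each), a log2 fold change of 0.34 (SE 0.22, 95% interval -0.14 to 0.82). The unadjusted p in edgeR's test was 0.145. Without HSC-PCK1-KO replicate 1 the log2 fold change was 0.16.

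Wnt9b (ENSMUSG00000018486.3), a ligand of central vein endothelium, had 1.34, 0.704, 1.60 and 1.10 CPM in HSC-PCK1-KO livers, against 0.792, 0.825, 0.761 and 0.747 CPM in control livers. Replicates 1, 3 and 4 of HSC-PCK1-KO stood above every control library. In CPM, HSC-PCK1-KO replicate 2 stood below all of the controls, though its 35 counts equalled those of control replicate 2. The mean was 1.19 ± 0.381 CPM in HSC-PCK1-KO livers and 0.781 ± 0.0350 CPM in controls (SD, n = 4 each). The log2 fold change was 0.60 (SE 0.25, 95% interval 0.035 to 1.16), with an unadjusted p of 0.0396 in edgeR's test, the only member under 0.05. Over all genes tested, 370 of 15669 (2.36%) had an unadjusted p under 0.05. These values rest on 35 to 77 counts per library, and the log2 fold change ran from 0.42 without HSC-PCK1-KO replicate 3 to 0.78 without HSC-PCK1-KO replicate 2.

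Rspo3 (ENSMUSG00000019880.11), the R-spondin of the central vein region, had 6.12, 5.43, 6.34 and 5.31 CPM in HSC-PCK1-KO livers, against 5.85, 5.83, 5.09 and 5.21 CPM in control livers. The libraries of both genotypes lay within a narrow band and were interleaved. The mean was 5.80 ± 0.508 CPM in HSC-PCK1-KO livers and 5.49 ± 0.398 CPM in controls (SD, n = 4 each), with a log2 fold change of 0.078 (SE 0.11, 95% interval -0.16 to 0.32). Without HSC-PCK1-KO replicate 3 it was 0.032.

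**Figure D1:**
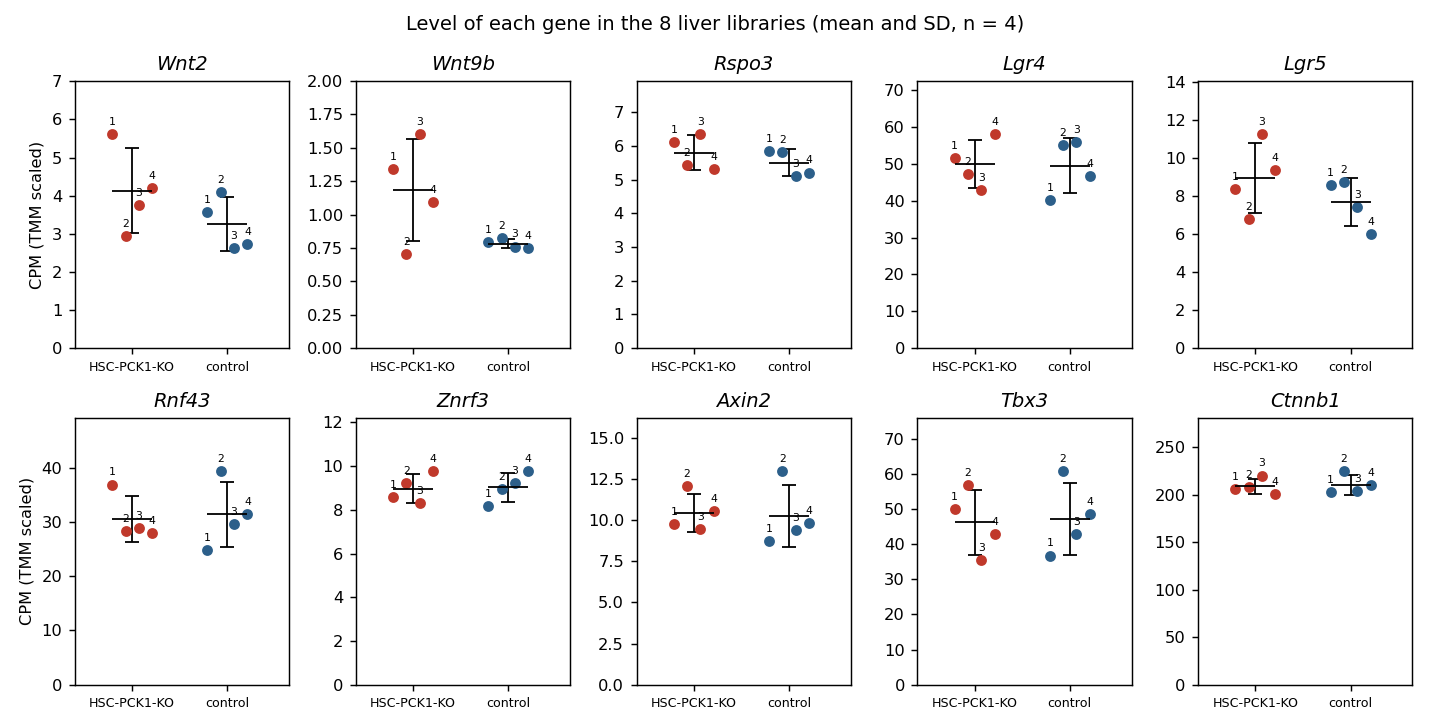
Level of each of the 10 genes in CPM (vertical axes, linear, starting at 0) in the 4 HSC-PCK1-KO and 4 control livers, with 1 point per library and the group mean ± SD. The 2 groups overlap in every panel, and in the Wnt9b panel 3 HSC-PCK1-KO livers (1.10 to 1.60 CPM) lie above the 4 controls (0.747 to 0.825 CPM) and 1 lies below them.

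Lgr5 (ENSMUSG00000020140.16), an R-spondin receptor that in liver marks pericentral hepatocytes, had 8.40, 6.82, 11.3 and 9.37 CPM in HSC-PCK1-KO livers, against 8.61, 8.77, 7.42 and 6.01 CPM in control livers. HSC-PCK1-KO replicates 3 and 4 exceeded every control library, while replicates 1 and 2 were within the control range. The log2 fold change was 0.22 (SE 0.17, 95% interval -0.15 to 0.59), and it was 0.090 without HSC-PCK1-KO replicate 3. Lgr4 (ENSMUSG00000050199.14), the R-spondin receptor expressed across the lobule, had 51.6, 47.1, 42.9 and 58.0 CPM in HSC-PCK1-KO livers, against 40.2, 55.1, 55.8 and 46.7 CPM in control livers. The highest Lgr4 library was of HSC-PCK1-KO and the lowest a control. Lgr4 averaged 49.9 ± 6.46 CPM in HSC-PCK1-KO livers and 49.5 ± 7.40 CPM in controls (SD, n = 4 each), with a log2 fold change of 0.013 (SE 0.12).

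Rnf43 (ENSMUSG00000034177.16) had 36.9, 28.3, 28.9 and 28.0 CPM in HSC-PCK1-KO livers, against 24.9, 39.3, 29.7 and 31.5 CPM in control livers. HSC-PCK1-KO replicate 1 stood apart from the other 3 of its group, within the control range. Rnf43 had a log2 fold change of -0.039 (SE 0.14, 95% interval -0.35 to 0.28). Znrf3 (ENSMUSG00000041961.15), the other ligase of the pair, had 8.58, 9.21, 8.31 and 9.76 CPM in HSC-PCK1-KO livers, against 8.18, 8.96, 9.24 and 9.77 CPM in control livers. Both groups covered nearly the same range of Znrf3, and the log2 fold change was -0.011 (SE 0.092, 95% interval -0.22 to 0.19).

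Axin2 (ENSMUSG00000000142.16), a scaffold of the destruction complex and a feedback target, had 9.74, 12.1, 9.45 and 10.6 CPM in HSC-PCK1-KO livers, against 8.73, 13.0, 9.41 and 9.84 CPM in control livers. Each group held 1 library above the others, replicate 2 in both. For Axin2 the log2 fold change was 0.031 (SE 0.13, 95% interval -0.27 to 0.33). Tbx3 (ENSMUSG00000018604.19), a transcription factor and pericentral target, had 50.04, 56.8, 35.4 and 42.8 CPM in HSC-PCK1-KO livers, against 36.8, 60.7, 42.8 and 48.5 CPM in control livers. Its spread within each group exceeded the difference between them, and the log2 fold change was -0.029 (SE 0.18, 95% interval -0.43 to 0.38). An antisense gene, Tbx3os1, shares 115 of the 6624 exon bases of Tbx3 and had 309 to 694 counts per library, 24% of the count of Tbx3. The labels do not state whether the counting used strand.

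Ctnnb1 (ENSMUSG00000006932.18), the transducer of the signal, had 206, 208, 220 and 201 CPM in HSC-PCK1-KO livers, against 202, 225, 204 and 210 CPM in control livers. It was the most abundant member, with 208.7 ± 8.26 CPM in HSC-PCK1-KO livers and 210.3 ± 10.2 CPM in controls (SD, n = 4 each). Its log2 fold change was -0.011 (SE 0.071, 95% interval -0.17 to 0.15). Beta-catenin is regulated mainly through protein stability, which these transcript counts do not measure.

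The precision of these values bounds the differences that could have gone unseen. For 7 of the 10 members the 95% interval of the fold change lay within 1.5-fold in either direction, the exceptions being Wnt2, Wnt9b and Lgr5. For 9 of 10 it lay within 2-fold, the exception being Wnt9b, whose interval ran from 1.02-fold to 2.24-fold. The intervals cover each gene alone, with no allowance for the number of genes tested. Over the members, 6 log2 fold changes were positive and 4 negative with a median of 0.022, while over all genes tested 48.2% were positive with a median of -0.0055. No member had groups that did not overlap, which 240 of 15669 genes (1.53%) had.

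**Figure D2:**
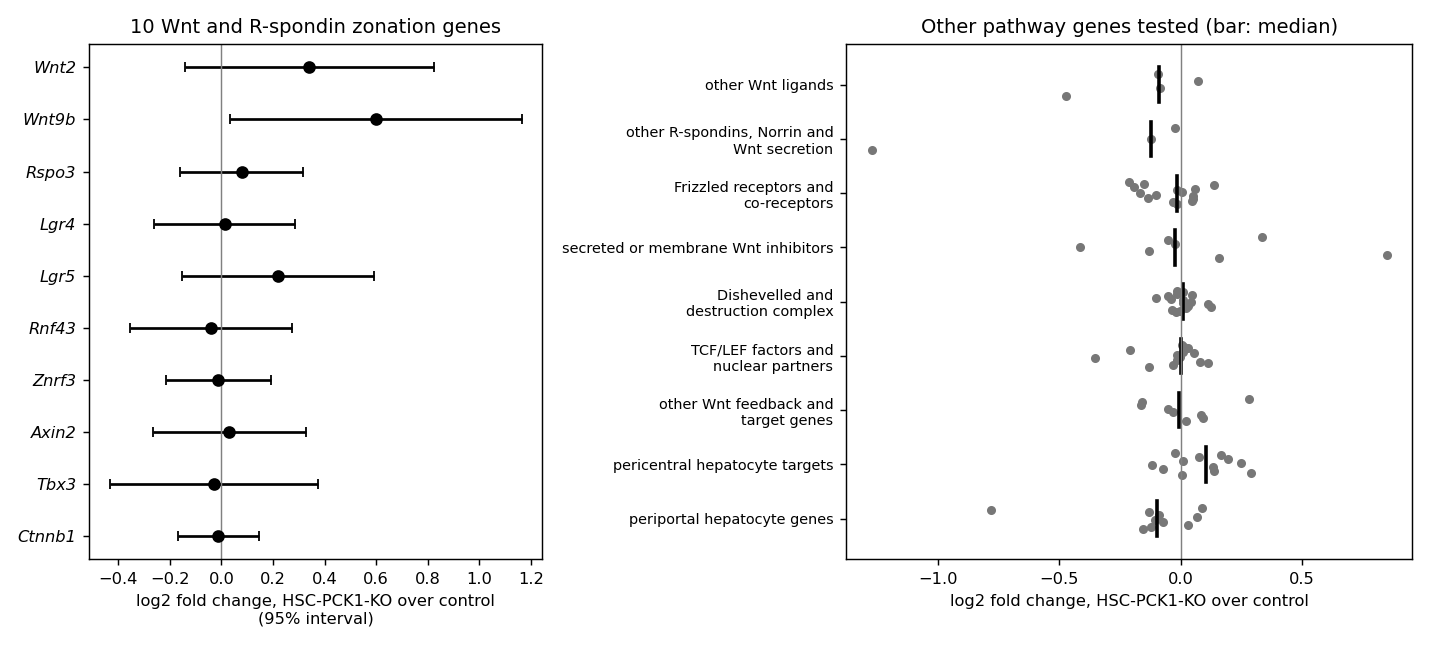
Log2 fold change of HSC-PCK1-KO over control (horizontal axis, 0 is no difference) with its 95% interval for the 10 genes (left), and of each tested gene of the 9 pathway lists with the median as a bar (right). The interval of Wnt9b (0.035 to 1.16) lies above 0, and those of the other 9 members span it.

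Per length of exon, the order of the members' levels over all 8 libraries was Ctnnb1, Lgr4, Tbx3, Rnf43, Axin2, Rspo3, Wnt2, Znrf3, Lgr5 and Wnt9b. Ctnnb1 averaged 40.4 CPM per kilobase, Lgr4 8.44, Tbx3 7.05 and Rnf43 4.72 CPM per kilobase. The next 5, from Axin2 at 1.88 to Lgr5 at 0.812 CPM per kilobase, formed a run in which neighbours overlapped across libraries. Wnt9b was lowest at 0.218 CPM per kilobase. Ctnnb1 and Lgr4 did not overlap, nor did Rnf43 and Axin2, nor Lgr5 and Wnt9b, while Lgr4 overlapped Tbx3 and Tbx3 overlapped Rnf43.

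Within each family 1 or a few genes made up most of the transcript level per length. Rspo3 gave 92.4% of the summed level of the R-spondins and Rspo1 7.56%. Lgr4 gave 91.0% of the summed level of the 3 LGR receptors, against 8.86% for Lgr5 and 0.12% for Lgr6. Rnf43 gave 80.3% of the ligase pair and Znrf3 the remaining 19.7%. Among the Wnt ligands, Wnt5b gave 39.0%, Wnt2 34.5%, Wnt4 9.91%, Wnt9a 6.05% and Wnt9b 4.58%, and no count of Wnt3a, Wnt8a or Wnt16 was found in any library. Whole liver mixes cell types, so a low share can belong to a gene that few cells express, and fewer cells of a type and less RNA per cell cannot be told apart.

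**Figure D3:**
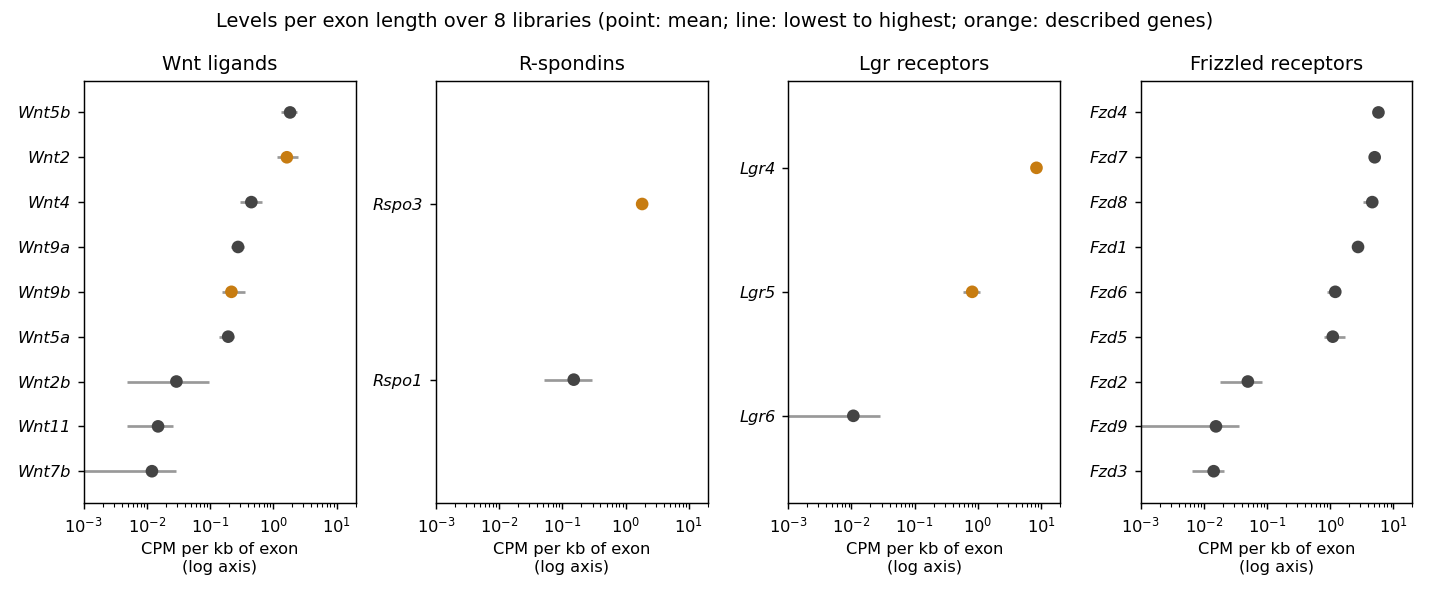
Level per exon length (CPM per kilobase, log axis) of the Wnt ligands, R-spondins, LGR receptors and Frizzled receptors, as the mean over 8 libraries with a line from the lowest to the highest library. Genes with a mean under 0.01 are left out and lines are drawn no lower than 0.001, and Rspo3 and Lgr4 lead their families while Wnt2 (1.64) stands just under Wnt5b (1.84). Orange points are members.

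Ratios of paired members differed between the groups by less than the spread within them. The ratio of Lgr4 to Lgr5 per length was 10.1 ± 2.36 in HSC-PCK1-KO and 11.5 ± 2.47 in control livers (SD, n = 4 each, exact two-sided permutation p = 0.457). The ratio of Wnt2 to Wnt9b was 7.28 ± 1.75 in HSC-PCK1-KO and 8.31 ± 1.43 in control livers (exact two-sided permutation p = 0.486). Rnf43 over Znrf3 was 4.13 ± 0.760 in HSC-PCK1-KO and 4.18 ± 0.745 in control livers (exact two-sided permutation p = 0.886). After adjustment over these 3 ratios the exact permutation p of the first 2 was 0.729. With 4 libraries against 4 the smallest p the test can give is 0.0286.

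The ligands come from non-parenchymal cells, so their levels were also set against markers of those cells. The summed level of the 10 sinusoidal endothelial markers ranged from 309 to 405 CPM in HSC-PCK1-KO and from 345 to 391 CPM in control livers, with 4 positive and 6 negative fold changes. Wnt9b amounted to 0.314 ± 0.0782% of that sum in HSC-PCK1-KO and 0.212 ± 0.0158% in control livers (SD, n = 4 each), a log2 difference of 0.54 with an exact two-sided permutation p of 0.0571 and 0.229 after adjustment over 4 values. HSC-PCK1-KO replicate 2, the library with the lowest Wnt9b level, also had the lowest endothelial sum, and its ratio of 0.228% lay within the control range of 0.191 to 0.230%. Wnt2 amounted to 1.10 ± 0.201% in HSC-PCK1-KO and 0.883 ± 0.192% in control livers, a log2 difference of 0.33 (exact adjusted p = 0.305) that was 0.21 without HSC-PCK1-KO replicate 1. The 3 central vein endothelial markers Thbd, Cdh13 and Kit all had positive fold changes, with sums from 10.7 to 15.6 CPM in HSC-PCK1-KO and from 10.8 to 12.6 CPM in control livers, and their part in the Wnt9b and Wnt2 values was not tested.

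The sum of the 10 quiescent stellate markers ranged from 238 to 288 CPM in HSC-PCK1-KO and from 289 to 312 CPM in control livers. These ranges came close without overlap, at 287.9 CPM in the highest HSC-PCK1-KO library and 289.5 CPM in the lowest control library. Of the 10 markers 9 had negative fold changes, and none passed the test. The groups of 1 marker did not overlap, beside 1.53% of all genes tested. Rspo3 amounted to 2.15 ± 0.341% of that sum in HSC-PCK1-KO and 1.81 ± 0.0993% in control livers (SD, n = 4 each), a log2 difference of 0.24 with an exact two-sided permutation p of 0.143 and 0.286 after adjustment. Without HSC-PCK1-KO replicate 1, which had the lowest stellate sum, the difference was 0.15. Against the sinusoidal endothelial sum, Rspo3 amounted to 1.57 ± 0.163% in HSC-PCK1-KO and 1.49 ± 0.155% in control livers (exact two-sided permutation p = 0.457). The log2 fold change of Rspo3 itself was 0.078, beside the 0.24 of its ratio to the stellate sum.

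**Figure D4:**
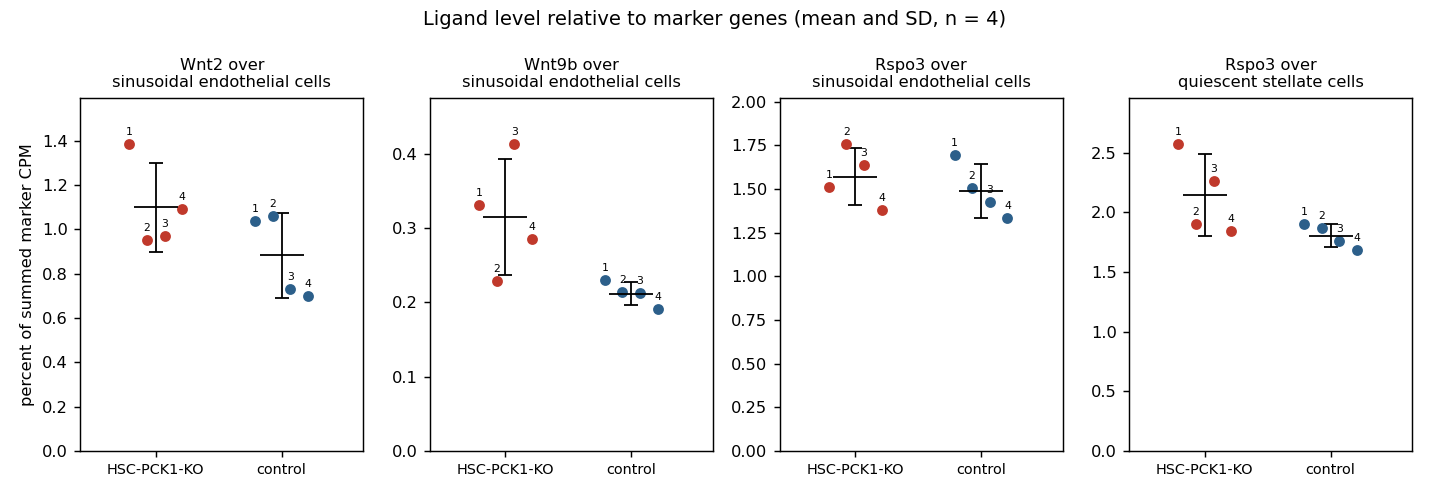
Ligand level as a percentage of the summed CPM of a marker list (vertical axes from 0) in 4 HSC-PCK1-KO and 4 control livers, with 1 point per library and the group mean ± SD. Wnt9b over the sinusoidal endothelial markers averages 0.314% in HSC-PCK1-KO and 0.212% in control livers, with overlapping groups.

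Other genes of the pathway were taken from 9 lists of 124 genes, 90 of which passed the filter on low counts. None of the 90 passed the test, 4 had an unadjusted p under 0.05 in edgeR's test beside the 2.36% of all genes, and 42 had positive and 48 negative log2 fold changes with a median of -0.015. Those 4 genes were Wnt4, Rspo1, Sfrp1 and Lect2.

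Of 17 other Wnt ligands 4 were tested, 1 positive and 3 negative, with a median log2 fold change of -0.09. That median ran from -0.20 without HSC-PCK1-KO replicate 4 to 0.0066 without control replicate 1. Wnt4 averaged 1.58 ± 0.322 CPM in HSC-PCK1-KO livers and 2.19 ± 0.425 CPM in controls (SD, n = 4 each). Its log2 fold change was -0.47 (SE 0.20), with an unadjusted p of 0.0419 in edgeR's test. Of the 6 genes for other R-spondins, Norrin and Wnt secretion, 3 were tested and all 3 were negative. Rspo1, the second R-spondin by level, averaged 0.171 ± 0.0849 CPM in HSC-PCK1-KO livers and 0.416 ± 0.172 CPM in controls, from 5 to 29 counts per library. Its log2 fold change was -1.27 (SE 0.43), with an unadjusted p of 0.0134 in the same test. The sum of 5 mesothelial markers ranged from 2.44 to 4.80 CPM in HSC-PCK1-KO and from 4.88 to 12.0 CPM in control livers. These ranges came close without overlap, and 5 of 5 fold changes were negative. The groups of 2 of the 5 markers did not overlap, beside 1.53% of all genes tested. Of these markers 3 had an unadjusted p under 0.05 in edgeR's test, none passed after adjustment, and Upk3b was among the 6 genes that DESeq2 called. The part of the mesothelial sum in the Rspo1 and Wnt4 values was not tested. Wls, the carrier that takes Wnt ligands to the cell surface, averaged 7.53 ± 0.379 CPM in HSC-PCK1-KO livers and 7.65 ± 1.52 CPM in controls.

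Of 20 Frizzled receptors and co-receptors 15 were tested, 6 positive and 9 negative, with none under an unadjusted p of 0.05. The co-receptor gene Lrp5 averaged 76.3 ± 4.44 CPM in HSC-PCK1-KO livers and 85.8 ± 11.7 CPM in controls, a log2 fold change of -0.17 that was -0.11 without control replicate 1. Of 18 secreted or membrane inhibitors 7 were tested, 3 positive and 4 negative. Sfrp1, a secreted protein that binds Wnt ligands, averaged 0.644 ± 0.215 CPM in HSC-PCK1-KO livers and 0.353 ± 0.151 CPM in controls, from 11 to 40 counts. Its log2 fold change was 0.85 (SE 0.35), with an unadjusted p of 0.0359 in edgeR's test. Notum, the enzyme that removes the lipid from Wnt ligands, averaged 37.0 ± 3.39 CPM in HSC-PCK1-KO livers and 37.6 ± 8.84 CPM in controls. All 17 genes of the destruction complex and Dishevelled group were tested, 9 positive and 8 negative, and the 14 tested TCF/LEF factors and partners were 7 positive and 7 negative. Tcf7l2, a TCF factor of hepatocytes, averaged 16.2 ± 1.78 CPM in HSC-PCK1-KO livers and 14.97 ± 1.41 CPM in controls, a log2 fold change of 0.11. Per length it gave 35% of the summed TCF/LEF level, beside 33.7% for Tcf7 and 31% for Tcf7l1.

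Downstream readouts of the signal were counted as well. Of 8 tested feedback and target genes 4 were positive and 4 negative, with Nkd1, a feedback inhibitor, at 7.55 ± 1.10 CPM in HSC-PCK1-KO livers and 7.44 ± 1.35 CPM in controls (SD, n = 4 each). Sp5, a direct target, averaged 2.47 ± 0.131 CPM in HSC-PCK1-KO livers and 2.34 ± 0.370 CPM in controls. Of 12 pericentral hepatocyte genes, all tested, 9 were positive and 3 negative (median log2 fold change 0.10, range -0.12 to 0.29). Of 10 periportal genes 3 were positive and 7 negative (median -0.097), and over all genes tested 48.2% were positive. The 7 negative periportal genes include Pck1, the targeted gene, which had the lowest log2 fold change of that list, -0.78. The pericentral genes given with values were all positive, and the 3 negative ones are not among them. With single libraries left out the pericentral median ran from 0.043 (without HSC-PCK1-KO replicate 1) to 0.18 (without control replicate 2) and the periportal median from -0.19 (without control replicate 1) to -0.028 (without control replicate 2). Glul, the glutamine synthetase of the last pericentral cell layer, averaged 1800 ± 207.5 CPM in HSC-PCK1-KO livers and 1791 ± 199 CPM in controls. Cyp2e1, a pericentral cytochrome, averaged 7965 ± 828 CPM in HSC-PCK1-KO livers and 7262 ± 930 CPM in controls. Oat, the pericentral ornithine aminotransferase, averaged 1610 ± 374 CPM in HSC-PCK1-KO livers and 1317 ± 243 CPM in controls, a log2 fold change of 0.29 that was 0.18 without HSC-PCK1-KO replicate 1.

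Lect2, a secreted hepatocyte protein and target of beta-catenin whose promoter window is printed among the sequences, had 213, 160.3, 184 and 161 CPM in HSC-PCK1-KO livers, against 137, 160.2, 151 and 157 CPM in control livers. It was the one gene of the 90 whose groups did not overlap, a trait of 1.53% of all genes tested, and HSC-PCK1-KO replicate 2 and control replicate 2 were nearly equal. The log2 fold change was 0.25 (SE 0.10), with an unadjusted p of 0.0367 in edgeR's test. Without HSC-PCK1-KO replicate 1 that log2 fold change was 0.15. Adjusted over all genes the p with all 8 libraries was 0.9998.

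Ligand levels were then set against target levels across the 8 libraries, in 15 pairs of Wnt2, Wnt9b or Rspo3 with Axin2, Lgr5, Tbx3, Rnf43 or Znrf3. No pair passed after adjustment over the 15 pairs. Wnt9b and Lgr5 had r = 0.78 (exact permutation p = 0.0195, adjusted 0.146) and rho = 0.83 (exact permutation p = 0.0154, adjusted 0.115). Without the 2 libraries farthest from the median of Wnt9b, replicates 1 and 3 of HSC-PCK1-KO, r was 0.74, and over deviations from the group means it was 0.74. Leaving out HSC-PCK1-KO replicate 1 alone gave a Pearson r of Wnt9b with Lgr5 of 0.85, with an adjusted exact permutation p of 0.0476. Leaving out HSC-PCK1-KO replicate 3 alone gave 0.59, with an adjusted exact permutation p of 0.714, and without any of the other 6 libraries the adjusted p stayed above 0.05.

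Rspo3 and Znrf3 had a negative coefficient, r = -0.84 (exact permutation p = 0.0133, adjusted 0.146) and rho = -0.86 (exact permutation p = 0.0107, adjusted 0.115). Without control replicate 3 and HSC-PCK1-KO replicate 3, the libraries farthest from the median of Rspo3, r was -0.87, and over deviations from the group means it was -0.88. Against Axin2, the coefficients were r = 0.066 for Wnt2, -0.27 for Wnt9b and -0.10 for Rspo3.

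**Figure D5:**
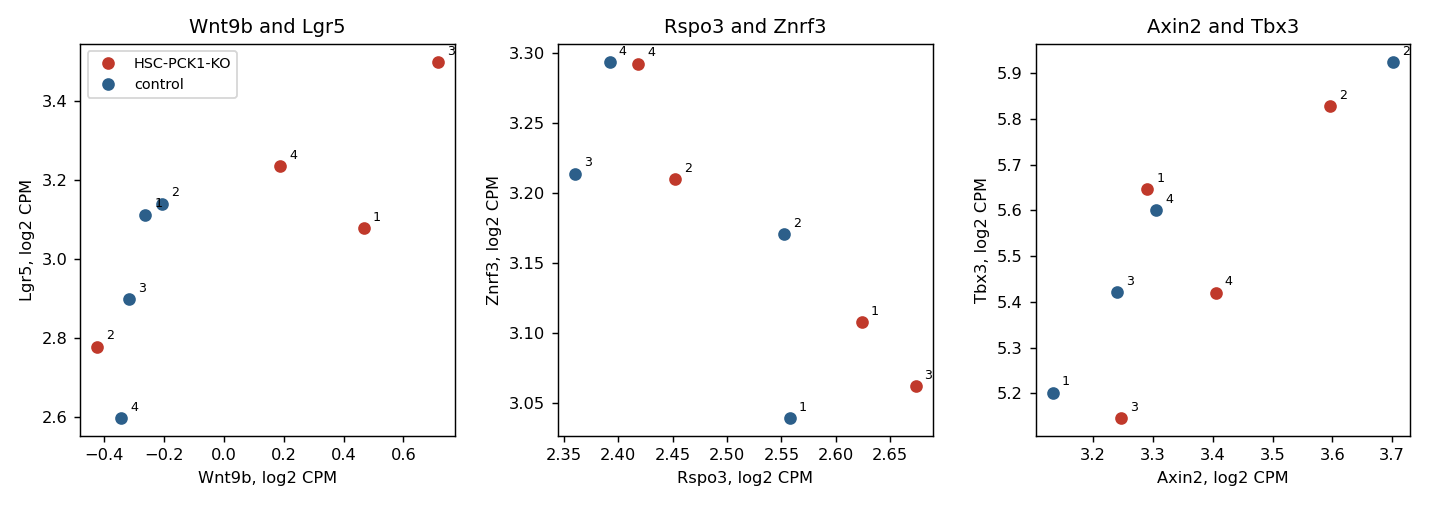
Log2 CPM of 2 genes against each other in the 8 livers, with each point a library labelled by its replicate number and coloured by genotype (HSC-PCK1-KO red, control blue). The left and middle panels set a ligand against a target, and the right panel sets the targets Axin2 and Tbx3 against each other (r = 0.85), where replicate 2 of both groups stands highest. Wnt9b against Lgr5 (r = 0.78) and Rspo3 against Znrf3 (r = -0.84) have the largest coefficients of the 15 pairs, and neither passes after adjustment.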

How the data were processed

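The authors deposited raw counts per gene, whole numbers for 56953 identifiers in each of 8 libraries, without normalization. Per the submitters' processing notes, the build was GRCm39 and R 4.3.2 was used. Aligner, counting tool, annotation release and strand setting were not given in the sources used here. Tissue was snap-frozen per the labels' protocols, RNA had an integrity number of at least 8, and oligo(dT)-captured mRNA gave strand-specific paired reads of 100 bases. Per the design text, each group holds 4 biological replicates.

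Symbols came by identifier from GENCODE M21 (build GRCm38), which named 52029 identifiers. Exon lengths came from the same annotation, as the union of all annotated exons of a gene. Levels, shares and ratios per length depend on that choice. Genes were kept with filterByExpr, scaled with TMM factors and tested with edgeR 4.0.16 in R 4.3.3 (quasi-likelihood F-test, robust, genotype as the only term), with Benjamini-Hochberg adjustment over 15669 genes and a threshold of 0.05. CPM is the count scaled by library total and TMM factor. Log2 CPM used a prior count of 2. Positive log2 fold changes mean higher in HSC-PCK1-KO. Within-group pairs of libraries differed by far more than counting noise.

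Named genes were the 10 members, the 3 genes of smallest p in each pathway list, 7 fixed readouts (Glul, Cyp2e1, Oat, Nkd1, Notum, Sp5, Tcf7l2) and the 3 genes with the highest r to each of 6 members, of which some are given as summaries. The members and lists were chosen with earlier results of these data known. Alternatives were RLE and upper-quartile scaling, DESeq2 1.42.0, no filter, limma-voom with sample weights (limma 3.58.1), a minimum of 1 CPM in at least 4 libraries, an adjusted p of 0.1, other marker denominators, the replicate number as a block and each library left out.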

Additional observations from a re-analysis of the deposited data

Results flagged for a closer look

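In 90 groups of 4 libraries, 3 held a library far from the other 3, where chance gives about 4.5 (1 in 20 groups). Rnf43 had 36.9 CPM in HSC-PCK1-KO replicate 1 and 28.0 to 28.9 CPM in the other 3 of that group. Wls had 8.09 CPM in HSC-PCK1-KO replicate 4 and 7.26 to 7.40 CPM in the other 3. Wif1, a secreted Wnt inhibitor, had 0.203 CPM in control replicate 1 and 0.592 to 0.637 CPM in the other 3 controls, from 10 to 32 counts per library.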

How the results depend on the processing

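Of 1100 alternative values, 1038 were held unchanged. Fold changes, differences and coefficients among them kept their direction and their side of the threshold, and counts stayed at 0. In the main setting none of the former had passed and every count was 0, so these labels are a weak check. Medians were held unchanged when they moved by less than a set margin, for lists the SD within groups, whatever their sign. The median of the secreted or membrane inhibitors ran from -0.058 to 0.14 with single libraries left out. DESeq2 called 6 genes where edgeR called 0, and no member was among them. An unadjusted p under 0.05 was given to 366 genes by DESeq2, 371 by limma-voom, which called 0, and 370 by edgeR. Leaving out a library gave 0 to 1 called genes, the 1 being a predicted gene without control replicate 1, and 0 to 1 ligand and target pairs. The counts showed no sign that replicate numbers pair the libraries. Same-numbered libraries had correlations of -0.33 to 0.058 in their deviations, and 1 of 8 libraries correlated best with its own number. With the replicate block edgeR called 0 genes and 0 members, and gave 311 genes an unadjusted p under 0.05.

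In limma-voom the log2 fold change was -0.0082 for Lgr4, 0.0020 for Rnf43, 0.055 for Tbx3, 0.0046 for Ctnnb1, 0.0091 for Wls and 0.012 for Notum, each of opposite sign to edgeR. With single libraries left out, the log2 fold change ran from -0.074 to 0.082 for Lgr4, -0.057 to 0.030 for Znrf3, -0.045 to 0.16 for Axin2, -0.14 to 0.12 for Tbx3, -0.039 to 0.022 for Ctnnb1 and -0.14 to 0.088 for Rnf43. For list genes it ran from -0.22 to 0.035 for Wnt5a, -0.19 to 3.9e-04 for Wnt9a, -0.66 to 0.11 for Myc, -0.086 to 0.13 for Nkd1, -0.075 to 0.084 for Glul, -0.080 to 0.20 for Amer1, -0.15 to 0.087 for Notum, -0.0036 to 0.18 for Sp5, -0.10 to 0.12 for Wls and -0.37 to 0.18 for Cd44. The r ran from -0.11 to 0.23 for Wnt2 and Tbx3, -0.12 to 0.36 for Wnt9b and Rnf43, -0.32 to 0.059 for Rspo3 and Axin2, -0.39 to 0.17 for Rspo3 and Tbx3, -0.12 to 0.26 for Wnt2 and Axin2, -0.32 to 0.069 for Axin2 and Lgr5, -0.20 to 0.070 for Lgr5 and Rnf43 and -0.30 to 0.28 for Rnf43 and Znrf3. The cause was not tested. Wnt9b, Rspo1, Sfrp1, Trabd2b and Wif1 were not kept by the filter of 1 CPM, so that alternative gives them no value, and their counts limit what depth can show.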

Other observations

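The target genes were also set against each other across the 8 libraries, in 10 pairs chosen after the data were seen. Axin2 and Tbx3 had r = 0.85 (exact permutation p = 0.0079, adjusted 0.079) and rho = 0.74 (exact permutation p = 0.0458, adjusted 0.458). Without replicate 2 of HSC-PCK1-KO and of control, which had the highest levels of both genes, r was 0.52 over the 6 libraries left (exact permutation p = 0.299), a narrower range of Axin2. With single libraries left out r ran from 0.76 to 0.90, and over deviations from the group means it was 0.86.

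The genes whose log2 CPM was most like that of a member over 8 libraries are given with Pearson's r as a description. For Axin2 they were Mon2 (0.94), Fech (0.93) and Sema4g (0.93). For Wnt9b they were Krt10 (0.93), Mpdu1 (0.92) and Alg9 (0.91), and for Wnt2 Ube2u (0.96), Srp19 (0.95) and Pin4 (0.93). For Rspo3 they were Mesd (0.99), Chordc1 (0.95) and Nifk (0.94), for Lgr5 Sigirr (0.96), Camta1 (0.95) and Tlcd2 (0.94), and for Tbx3 Arhgef10l (0.96), Gzf1 (0.94) and Plxnb2 (0.92). The libraries are the same 8 in every case, and 11577 genes were compared with each member.

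Other genes overlap some members. A gene inside an intron of Rnf43, 1110028F11Rik, had 66 to 131 counts, 6.23% of the count of Rnf43. Ulk4, on the strand opposite Ctnnb1, shares 759 exon bases with it and had 12 to 94 counts, 0.531% of the count of Ctnnb1.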
